A study of Mus musculus with 12 samples.

Results

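Colonoids given interleukin-22 (IL-22) alone were compared directly with colonoids given interleukin-1 beta (IL-1b) alone, to find which transcripts separate the responses to the single cytokines. The comparison used 6 of the study's 12 libraries, 3 for each cytokine, and every gene with enough counts for a test, which was 13987 of the 35869 gene symbols in the deposited count table. Colonoids are cultures of colon epithelium grown from crypts. The crypts came from C57BL/6 mice and were kept overnight in Matrigel, in a medium with EGF and L-WRN conditioned medium, a source of Wnt3a, R-spondin and noggin. They were then stimulated for 12 hours, with the recombinant mouse proteins at different doses: 1 ng/mL for IL-22 and 100 ng/mL for IL-1b. The other 6 libraries were 3 of unstimulated colonoids and 3 of colonoids given both cytokines, with the same strain, culture and time. They shared in the estimate of the spread, and are used below as libraries that the comparison itself did not contain. The labels do not say whether the replicates of a group came from separate animals or cultures, so the p-values measure the spread among these libraries only, and that spread may be technical.

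IL-22 is made mainly by lymphocytes and acts on epithelial cells. Its receptor, a pair of Il22ra1 and Il10rb, signals through JAK kinases to the transcription factor STAT3, and in the colon it is known for inducing antimicrobial proteins, fucosylation of the epithelial surface and repair. IL-1b binds Il1r1, which pairs with Il1rap and signals through MyD88, IRAK kinases and TRAF6 to NF-kB and MAP kinases, a route known for inducing chemokines, cytokines and growth factors of white blood cells.

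The 6 libraries held 4728048 to 5804033 counts each, and the highest count of any gene in any library was 6744. Levels are given as CPM, counts scaled to the TMM-adjusted total of the tested genes in each library. All 9 epithelial markers (Epcam, Cdh1, keratins, Vil1, Cdx1, Cdx2 and Lgals4) were detected, with a summed level of 2438 to 3045 CPM per library. IL-1b replicate 1 stood apart: its 10 leukocyte markers summed to 101 CPM, against 24.8 and 17.1 CPM in the other IL-1b libraries, 3.96 to 15.1 CPM with IL-22 and 7.59 to 9.46 CPM in unstimulated colonoids. Tyrobp, a defining myeloid marker, was at 0 in all 6 libraries. Results that rest on that library are given with and without it. In bulk samples, fewer cells of a type and less RNA per cell cannot be told apart.

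Higher with IL-22 than with IL-1b were the STAT3 feedback gene Socs3, the cytokine receptor Osmr, the antimicrobial lectins Reg3b and Reg3g and the secreted glycoprotein Lrg1, along with broad sets of genes for protein folding, glycosylation and junctions. Colonoids given IL-1b had the higher levels of the chemokines Ccl20, Cxcl9, Cxcl10 and Cxcl11, of the growth factor Csf1 and of genes of metabolism such as Pck1. By edgeR's quasi-likelihood test with Benjamini-Hochberg adjustment over all genes tested, 1920 genes were higher with IL-22 (13.7% of those tested) and 1753 were lower (12.5%), together 26.3%. The same test gives every adjusted p below. Most of these differences were small. Of the genes higher with IL-22, 1290 differed by less than 0.5 on the log2 scale, 390 by 0.5 to 1, 179 by 1 to 2 and 61 by 2 or more, with a median of 0.36. Of those lower with IL-22, the same classes held 776, 617, 305 and 55 genes, with a median size of 0.54. At least 2-fold differences numbered 240 higher and 360 lower. The 3 IL-22 libraries did not overlap the 3 IL-1b libraries in 1844 of the 1920 and 1689 of the 1753. Over all genes tested, no overlap was seen for 2802 with IL-22 above and 2913 with IL-22 below, against the 13.7% and 12.5% called.

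The split between directions depended on the scaling: with library totals as the only scaling, 1333 genes were higher and 2497 lower, so that 34.8% of calls were higher with IL-22, against 52.3% with TMM. The direction was also related to how densely a gene was counted. Among genes with fewer than 0.02 counts per exon base, 184 were higher and 493 lower, with a median log2 fold change of -0.18, and among the 446 genes with 0.4 or more, 160 were higher and 16 lower, with a median of 0.14. With that trend removed, 1667 genes were higher and 1439 lower. Between the lowest and the highest of the 6 libraries, the summed counts of those 446 genes differed 1.08-fold (479397 to 516578), the summed counts of the genes below 0.02 differed 1.51-fold (125366 to 188922), and the library totals differed 1.23-fold. The sources used here do not say whether duplicate reads were removed before counting, and what this does to the folds of densely counted genes was not tested. Values with the trend removed are given below for some lists and genes.

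**Figure D1:**
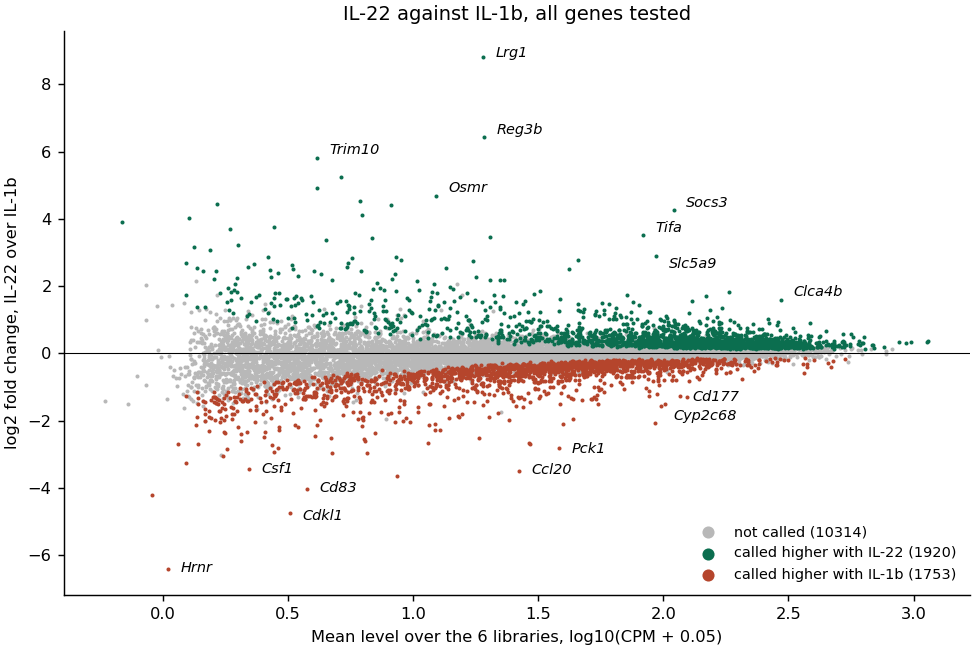
Log2 fold change of IL-22 over IL-1b (vertical axis) against the mean level over the 6 libraries on a log10 scale, 1 point per gene tested, green for the 1920 genes called higher with IL-22 and red for the 1753 called higher with IL-1b. The largest differences lie among genes of low or middle level, and the plotted values of Lrg1, Trim10, Hrnr and Cdkl1, which had 3 or fewer counts in 1 group, depend on the small constant used in the fit.

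Among the leading genes with IL-22 was Socs3 (chr11:117966079-117970047, mm10), which encodes the feedback inhibitor of STAT3-activating receptors. Its level was 198, 219 and 211 CPM with IL-22 and 11.4, 10.3 and 11.1 CPM with IL-1b, a log2 fold change of 4.25 ± 0.16 (SE, adjusted p = 1.02e-09). The IL-1b libraries lay at the unstimulated level of 13.4 ± 5.84 CPM (mean ± SD, n = 3), and the IL-22 libraries at the level with both cytokines, 214 ± 8 CPM. Osmr (chr15:6813577-6874969), the receptor for oncostatin M, was at 31.8, 27.9 and 11.5 CPM with IL-22 and 0.551, 0.941 and 1.16 CPM with IL-1b, a log2 fold change of 4.69 ± 0.48 (SE, adjusted p = 1.57e-05). The IL-22 libraries varied among themselves, and their place above all 3 IL-1b libraries was a condition of the choice of leading genes. Tifa (chr3:127789805-127832164), an adaptor that activates TRAF6 and NF-kB, went with IL-22 and not with IL-1b: 167, 136 and 155 CPM with IL-22 and 14.3, 14.1 and 12 CPM with IL-1b, a log2 fold change of 3.51 ± 0.11 (SE, adjusted p = 1.38e-10). Tifa shares exon bases with a neighbouring annotated transcript, so its count is not fully its own if strand was not used in counting.

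Secreted antimicrobial and acute-phase proteins made up much of the rest of the leading genes. Lrg1 (chr17:56119678-56122001), an acute-phase glycoprotein, was almost absent without IL-22, with 546 counts summed over the IL-22 libraries against 1 count over the IL-1b libraries. Scaled to library size, that is a ratio of 625, with a 95% interval of 112 to 24714 that covers counting error only. The ratio was 401 without IL-1b replicate 3. Without IL-1b replicate 2, which held the single count, the IL-22 level of Lrg1 was at least 142-fold higher than 3 counts over the IL-1b group. Reg3b (chr6:78370657-78373466) and Reg3g (chr6:78466269-78468872) encode lectins that bind and kill bacteria. Reg3b was at 36.5, 29.9 and 47 CPM with IL-22 and 0.184, 0.941 and 0.166 CPM with IL-1b, a log2 fold change of 6.43 ± 1.09 (SE, adjusted p = 0.000809), and Reg3g at 12, 8.2 and 9.62 CPM with IL-22 and 0, 0.376 and 0.333 CPM with IL-1b, a log2 fold change of 5.25 ± 1.14 (SE, adjusted p = 0.00423). Among unstimulated colonoids, which share in the SE, replicate 1 alone held 19.4 CPM of Reg3b and 7.48 CPM of Reg3g, and the other two held at most 0.182 CPM of either. These lectins are closely similar copies, and reads could be split between them. Log2 fold changes of 4.92 ± 0.49 for the bactericidal phospholipase Pla2g2a, 4.54 ± 0.45 for the iron-binding lactoferrin Ltf and 3.43 ± 0.58 for the goblet cell peptide Retnlb were also called. The reference annotation lists Pla2g2a as a polymorphic pseudogene. S100a8, a subunit of calprotectin, had 34 counts against 2, a ratio of 19.4 (95% counting interval 4.99 to 167). Leaving out 1 library moved some of these by more than 1.5-fold: without IL-1b replicate 2 the log2 fold change was 7.57 for Reg3b and 5.35 for Ltf, and Retnlb was 4.09 without IL-1b replicate 1 and 2.79 without IL-22 replicate 1.

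The remaining leading genes have varied roles. Slc5a9, a sodium-dependent sugar carrier, was at 165, 138 and 192 CPM with IL-22 and 23, 20.5 and 23.1 CPM with IL-1b, a log2 fold change of 2.89 ± 0.17 (SE, adjusted p = 7.38e-08). Nckap5 was at 35.1, 34.8 and 40.9 CPM with IL-22 and 3.49, 3.39 and 3.16 CPM with IL-1b, with 3.73 ± 0.488 CPM in unstimulated colonoids. In both, the groups were far apart and the replicates close. Cpn2, the regulatory subunit of the plasma carboxypeptidase that inactivates kinins and anaphylatoxins, was at 8.05, 12.4 and 26 CPM with IL-22 and 0.368, 1.32 and 0.499 CPM with IL-1b, a log2 fold change of 4.40 ± 0.57 (SE, adjusted p = 0.000112). The membrane serine protease Prss27 (4.12 ± 0.38), the choline-pathway enzyme Dmgdh (3.74 ± 0.65), the matrix protease Adamts4 (3.22 ± 0.43), the sodium channel subunit Scn3b (2.87 ± 0.59) and the sphingosine kinase Sphk1 (2.82 ± 0.40) had lower levels, at most 14 CPM in any of the 6 libraries. Trim10 had 118 counts against 2, a ratio of 67.5 (95% counting interval 18.3 to 564), and the myosin light chain Myl1 had 46 against 2, a ratio of 26.3 (6.88 to 224). Dmgdh, Adamts4 and Sphk1 share exon bases with another annotated gene. Their values leaned on single libraries: the log2 fold change was 5.08 without IL-1b replicate 2 and 3.78 without IL-22 replicate 3 for Cpn2, 4.96 without IL-1b replicate 1 for Prss27, and 5.51 without IL-1b replicate 2 and 3.13 without IL-1b replicate 3 for Dmgdh. For Scn3b it was 3.59 without IL-1b replicate 1 and 2.18 without IL-22 replicate 1, for Sphk1 3.44 without IL-1b replicate 1, and the ratio for Myl1 was 16.9 without IL-1b replicate 3. All stayed called.

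On the IL-1b side, Ccl20 (chr1:83116766-83119167), the chemokine that attracts cells with the receptor CCR6, was at 48.9, 44.6 and 51.9 CPM with IL-1b and 4.96, 2.22 and 5.47 CPM with IL-22, a log2 fold change of -3.49 ± 0.23 (SE, adjusted p = 4.16e-07) for IL-22 over IL-1b. Unstimulated colonoids had 14.8 ± 1.83 CPM and those given both cytokines 22.4 ± 5.66 CPM, so that the 4 groups were ordered IL-22, unstimulated, both, IL-1b. Csf1 (chr3:107741048-107760469), the growth factor of macrophages, was low throughout: 4.41, 2.82 and 4.66 CPM with IL-1b and 0, 0.886 and 0.189 CPM with IL-22, a log2 fold change of -3.45 ± 0.55 (SE, adjusted p = 0.000483). Without IL-22 replicate 2, the library that held most of the IL-22 counts, it was -5.03. Cd83, a membrane protein best known from dendritic cells, was at 5.15, 8.28 and 7.65 CPM with IL-1b and 0.206, 0.443 and 0.566 CPM with IL-22, a log2 fold change of -4.03 ± 0.40 (SE, adjusted p = 1.13e-05), and its unstimulated level of 5.48 ± 1.09 CPM lay near that with IL-1b.

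Several leading genes of that side act in metabolism and transport. Pck1, the gluconeogenic enzyme phosphoenolpyruvate carboxykinase, was at 54.8, 84.3 and 62.2 CPM with IL-1b and 6.81, 8.2 and 13 CPM with IL-22, a log2 fold change of -2.82 ± 0.21 (SE, adjusted p = 8.91e-07), with 71.5 ± 6.76 CPM in unstimulated colonoids and 7.29 ± 1.55 CPM with both cytokines. The IL-1b and unstimulated libraries thus lay together, and the IL-22 libraries lay with those given both. The same placement held for the bile acid conjugating enzyme Baat (-2.51 ± 0.25), the carrier Slc16a9 (-2.68 ± 0.26) and the cytochrome P450 Cyp2c69 (-2.68 ± 0.25), closely similar to Cyp2c68. Nxpe2, a gene of goblet cells, had a log2 fold change of -2.69 ± 0.21 (SE, adjusted p = 1.48e-06). Best2, a chloride and bicarbonate channel of colonic goblet cells, was at 8.45, 13 and 11.1 CPM with IL-1b and 0.413, 1.99 and 3.02 CPM with IL-22, a log2 fold change of -2.55 ± 0.38 (SE, adjusted p = 0.000344). The epithelial sodium channel subunit Scnn1g (-3.05 ± 0.59), the glucuronosyltransferase Ugt2b1 (-2.85 ± 0.54) and the lactate dehydrogenase subunit Ldhb (-2.59 ± 0.54) were at or below 5.7 CPM in each of the 6 libraries. Without 1 IL-22 library the log2 fold change was -3.18 for Best2 (replicate 3), -3.77 for Scnn1g (replicate 2), -3.72 for Ugt2b1 (replicate 3) and -3.43 for Ldhb (replicate 2). Slc16a9 shares exon bases with other annotated genes, and Ugt2b1 belongs to a family of similar sequences.

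Other leading genes of the IL-1b side had few counts or leaned on 1 library. Hrnr, a protein of cornified epithelium, had 0 counts in the IL-22 libraries and 34 with IL-1b, at least 9.91-fold lower with IL-22 (against 3 counts over the group), and at least 6.32-fold lower without IL-22 replicate 3. Cdkl1 had 3 counts against 103, a ratio of 0.0333 (95% counting interval 0.00676 to 0.1001), or 0.0166 without IL-22 replicate 1. The matrix protein Prelp had 3 against 36, a ratio of 0.0953 (0.0188 to 0.302), or 0.0459 without IL-22 replicate 2. Krt4, a keratin of stratified epithelium, was at 4.04, 34.6 and 8.98 CPM with IL-1b and 1.86, 0.886 and 0.943 CPM with IL-22, and its call (adjusted p = 0.0415) was lost when the count density trend was removed (adjusted p = 0.0526) and when any library other than IL-1b replicate 1 was left out (adjusted p from 0.0535 to 0.194, the latter at -2.41). Ptprc (CD45) was at 19.1, 3.76 and 2 CPM with IL-1b and 0.826, 1.99 and 0.377 CPM with IL-22, Laptm5 at 23.9, 5.27 and 5.32 CPM with IL-1b and 1.65, 2.22 and 0.566 CPM with IL-22 and the galectin Lgals1 at 11.2, 1.32 and 2.33 CPM with IL-1b and 0.619, 0.886 and 0.566 CPM with IL-22. In all of them IL-1b replicate 1 was the highest library, and without it the calls were lost: -1.45 (adjusted p = 0.12), -1.87 (0.0577) and -1.41 (0.104). Laptm5 was called again when the 5 remaining single cytokine libraries were fitted alone (-1.86, adjusted p = 0.0116). Ptprc was -3.74 without IL-22 replicate 2, and also lost its call without IL-22 replicate 1 (-2.83, adjusted p = 0.0539) and without IL-22 replicate 3 (-2.54, adjusted p = 0.0584). Lgals1 lost its call without any 1 of the IL-22 libraries, with an adjusted p of 0.0532 without replicate 1, 0.0527 without replicate 2 and 0.052 without replicate 3. Plek, a pleckstrin of blood cells, was at 5.51, 8.84 and 9.48 CPM with IL-1b and 0.413, 1.77 and 1.89 CPM with IL-22 and kept its call without that library, at -2.73 (adjusted p = 0.000532). Plek and Cdkl1 share exon bases with neighbouring genes.

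**Figure D2:**
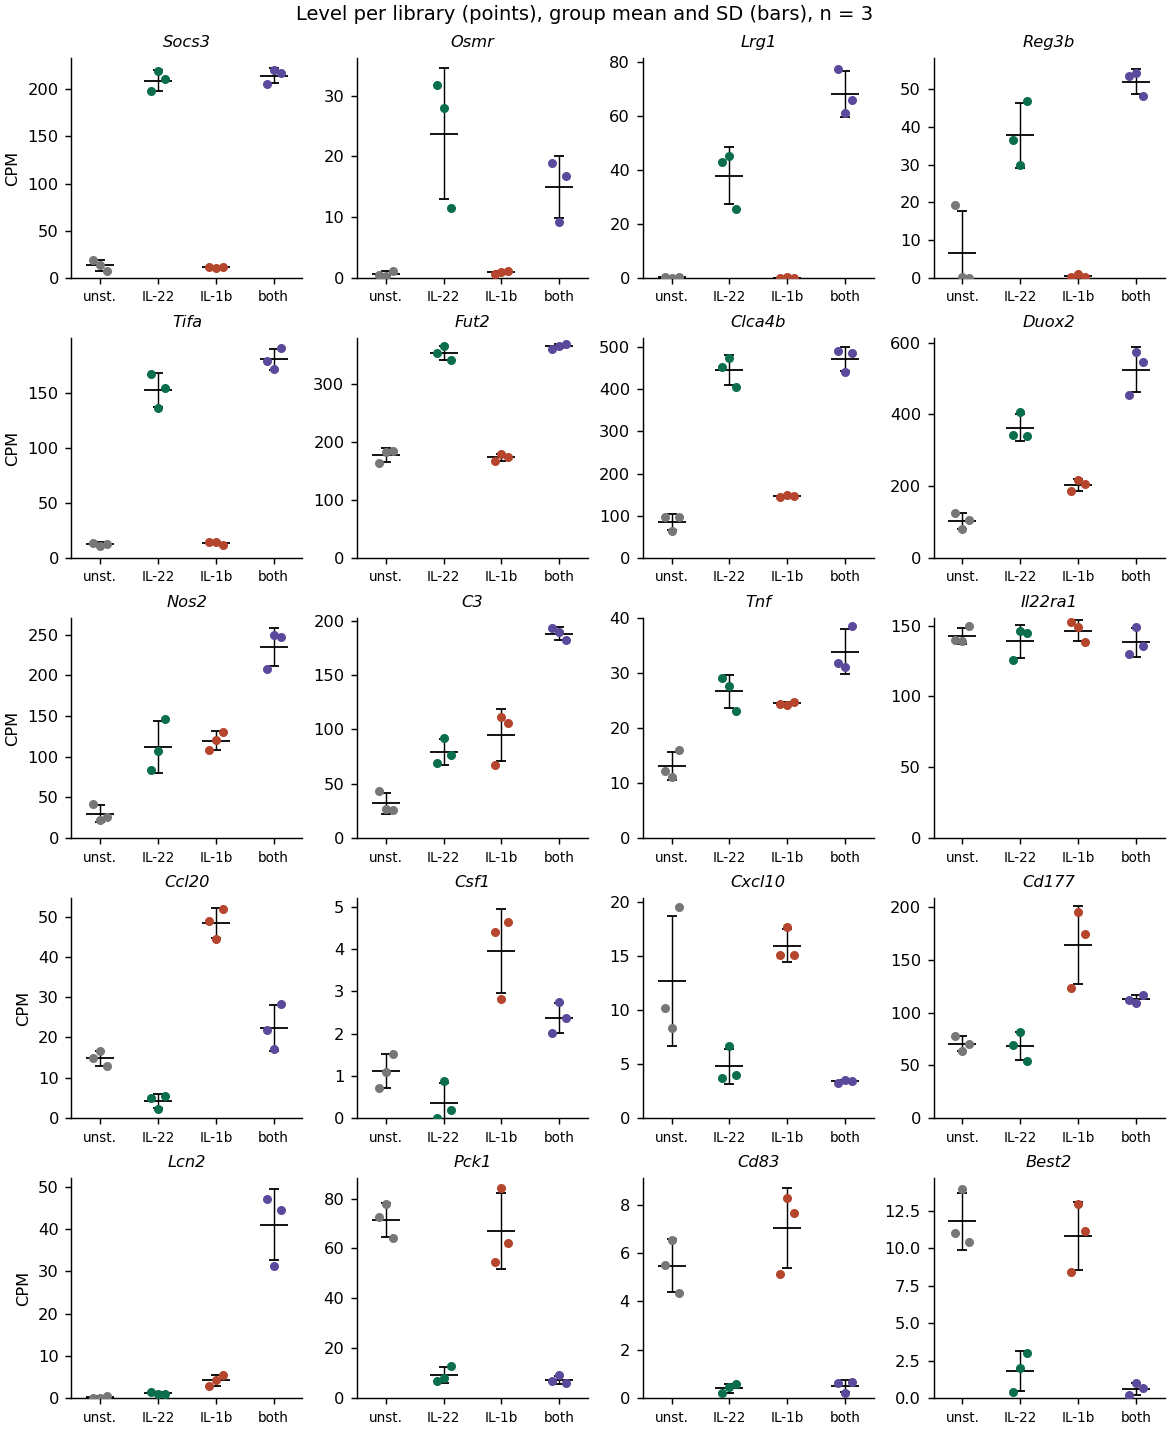
CPM of 20 genes in the 4 groups, 1 point per library, with the group mean and SD (n = 3). Socs3, Osmr, Lrg1 and Tifa are high in the groups with IL-22, Ccl20, Csf1 and Cd177 are highest with IL-1b alone, Pck1, Cd83 and Best2 are low in the groups with IL-22, and Nos2, C3, Tnf and Il22ra1 overlap between the single cytokines.

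Sequence before the start of the leading genes was searched for the STAT motif TTCNNNGAA, which reads the same on either strand, and for the kB motif of NF-kB on both strands. The window was the 250 bases before the RefSeq start (GRCm38.p6). A gene with several starts had several windows, and a match in any of them counted. At least 1 window was found for 10340 of the 13987 genes tested. A STAT motif stood in 754 of these (7.3%), in 18 of 184 genes at least 2-fold higher with IL-22 (9.8%) and in 12 of 257 at least 2-fold lower (4.7%). A kB motif stood in 1068 (10.3%), 23 (12.5%) and 30 (11.7%). Among the 20 leading genes of each direction, 15 each had a window. A STAT motif was in 4 of the 15 higher with IL-22, Reg3b, Cpn2, Socs3 and Sphk1, and in 0 of the 15 lower. A kB motif was in 3 and in 2. Sphk1 had several windows, and each motif was in some of them and not in others. A match describes the letters only. The stretches of the genes with the largest difference and a match for their direction are printed to show where it lies, with the match in capitals. For Reg3b the window overlaps an annotated exon and only the bases around the match are shown.
Reg3b (chr6:78370746-78370774, plus strand): agcctgttctTTCTTGGAAactctttgag
Cpn2 (chr16:30267533-30267782, minus strand): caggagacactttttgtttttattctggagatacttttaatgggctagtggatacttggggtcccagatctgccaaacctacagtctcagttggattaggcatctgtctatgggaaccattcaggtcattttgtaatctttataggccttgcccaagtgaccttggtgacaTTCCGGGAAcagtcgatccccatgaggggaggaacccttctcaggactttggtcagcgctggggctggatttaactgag
Ccl20 (chr1:83116516-83116765, plus strand): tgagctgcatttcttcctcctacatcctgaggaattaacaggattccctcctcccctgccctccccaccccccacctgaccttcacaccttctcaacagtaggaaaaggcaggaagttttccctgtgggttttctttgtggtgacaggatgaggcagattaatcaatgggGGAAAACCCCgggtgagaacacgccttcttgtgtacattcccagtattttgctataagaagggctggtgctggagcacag
Csf1 (chr3:107760470-107760719, minus strand): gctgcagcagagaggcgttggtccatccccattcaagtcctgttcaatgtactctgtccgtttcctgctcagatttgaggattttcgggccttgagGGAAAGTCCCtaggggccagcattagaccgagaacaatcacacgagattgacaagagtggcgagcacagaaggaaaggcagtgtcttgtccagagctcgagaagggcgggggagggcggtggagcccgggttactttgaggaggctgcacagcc
The capitals are the STAT motif in Reg3b and Cpn2 and the kB motif in Ccl20 and Csf1. The end of the match lies 71 bases before the start in Cpn2 and Ccl20, 121 in Reg3b and 145 in Csf1.

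Of the receptor chains described here, Il1rap differed between the cytokines by the test, and Il22ra1, Il10rb and Il1r1 did not. Il22ra1 was at 126, 146 and 145 CPM with IL-22 and 153, 149 and 138 CPM with IL-1b, a log2 fold change of -0.08 ± 0.07 with a 95% interval of -0.23 to 0.08, and Il10rb had an interval of -0.20 to 0.06. Il1r1, the signalling receptor of IL-1b, was low and variable, at 13.6, 5.98 and 5.09 CPM with IL-22 and 8.27, 9.41 and 9.31 CPM with IL-1b (95% interval -0.83 to 0.57), and its antagonist Il1rn had an interval of -0.09 to 0.24. The co-receptor Il1rap was lower with IL-22: 16.3, 10.2 and 13.4 CPM with IL-22 and 21.1, 21.1 and 20.8 CPM with IL-1b, a log2 fold change of -0.65 ± 0.16 (SE, adjusted p = 0.00886). Of 26 tested genes of the IL-22 receptor pathway, 8 were higher with IL-22 and 2 lower (30.8% and 7.7%), with a median log2 fold change of 0.10, against 13.7% and 12.5% called and a median of -0.0036 over all genes. Without IL-1b replicate 1 it was 7 and 0, and the median was -0.01 without IL-22 replicate 3 and 0.02 with total counts as the only scaling. Jak3 was at 97, 132 and 119.9 CPM with IL-22 and 39.7, 45 and 43.7 CPM with IL-1b (1.44 ± 0.12) and Stat3 at 253, 266 and 275 CPM with IL-22 and 161, 175 and 165 CPM with IL-1b (0.67 ± 0.07). Stat5a, which shares exon bases with Stat3, was called lower at -0.47 ± 0.16, but not without IL-1b replicate 1 (-0.44, adjusted p = 0.113), nor in 7 of the other 13 alternatives. Of 20 tested genes of the IL-1 receptor pathway, 8 were higher with IL-22 and 2 lower, against 13.7% and 12.5% of all genes. The median was 0.10. It was 5 and 2 without IL-1b replicate 1 (median 0.08), and 5 and 3 with total counts as the only scaling (median 0.02), so this balance depended on the processing. The 8 higher genes include adaptors and kinases that carry the signal of IL-1b. Traf6 was at 102, 96.4 and 109 CPM with IL-22 and 69.7, 66.6 and 72.5 CPM with IL-1b (0.56 ± 0.07). Tab3 was at 0.61 ± 0.10, Ikbkb at 0.38 ± 0.06 and Tab2 at 0.35 ± 0.06.

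Genes known as STAT3 targets mostly went with IL-22: 14 of 22 tested were higher and 1, Cish, was lower (63.6% and 4.5%), with a median log2 fold change of 0.42. Besides Socs3 and Osmr they include the kinase Pim3, at 104, 105 and 104 CPM with IL-22 and 44.5, 43.8 and 44.6 CPM with IL-1b (1.24 ± 0.06), the IL-4 receptor chain Il4ra (1.01 ± 0.07) and the fibrinogen-like protein Fgl2 (0.96 ± 0.18). Genes known as NF-kB targets did not go 1 way: 9 of 33 were higher with IL-22 and 5 lower (27.3% and 15.2%), with a median of 0.02. With library totals as the only scaling it was 7 and 7, with a median of -0.06, and without IL-1b replicate 1 it was 7 and 4, with a median of -0.01. Tnfaip2 was at 25.4, 25.8 and 19.6 CPM with IL-1b and 5.99, 5.09 and 8.11 CPM with IL-22, a log2 fold change of -1.86 ± 0.45 (SE, adjusted p = 0.00796), and the endonuclease Zc3h12a was lower at -0.31 ± 0.10, a call that any of 5 left-out libraries ended (log2 fold change from -0.24 to -0.34). The subunit Rel (0.91 ± 0.17) and the inhibitor Nfkbiz (0.41 ± 0.08) were higher with IL-22. Nfkbia was called higher at 0.24 ± 0.08, which was lost in 8 alternatives, among them total counts alone (0.17). Tnip2, at 0.56 ± 0.12, lost its call only in the fit of the 5 libraries without IL-1b replicate 1 (0.50, adjusted p = 0.0633). The deubiquitinase Tnfaip3 (-0.09 to 0.12) and the apoptosis inhibitor Birc3 (-0.29 to 0.03) had 95% intervals around 0.

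Several inducible genes of inflammation did not separate the cytokines by the test. Nos2, the inducible nitric oxide synthase, was at 83.2, 107 and 146 CPM with IL-22 and 108, 121 and 131 CPM with IL-1b, against 30.0 ± 10.5 CPM unstimulated and 235 ± 23.4 CPM with both. The log2 fold change between the cytokines was -0.10 ± 0.18, with a 95% interval of -0.49 to 0.30. Complement C3 was at 68.5, 92.1 and 76.6 CPM with IL-22 and 67.3, 111 and 106 CPM with IL-1b, with an interval of -0.65 to 0.12, and was called lower with IL-22 in 1 alternative, the fit of the 5 libraries without IL-1b replicate 1 (-0.46, adjusted p = 0.0184). Tnf was at 29.1, 27.7 and 23.2 CPM with IL-22 and 24.4, 24.3 and 24.8 CPM with IL-1b (interval -0.17 to 0.41), and the neutrophil chemokine Cxcl1 at 13.6, 8.86 and 7.17 CPM with IL-22 and 8.82, 6.58 and 10.3 CPM with IL-1b (interval -0.38 to 0.77). A p above the threshold does not show that these genes responded alike.

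Antimicrobial proteins were split, with 13 of 25 tested higher with IL-22 and 4 lower (52.0% higher) and a median log2 fold change of 0.32. That median was 0.16 without IL-1b replicate 3, 0.19 without IL-22 replicate 1 and 0.18 with the count density trend removed. The hydrogen peroxide producing oxidase Duox2 was at 344, 407 and 339.8 CPM with IL-22 and 185, 217 and 207 CPM with IL-1b (0.84 ± 0.13), and its maturation factor Duoxa2 at 0.81 ± 0.13. Lcn2, the siderophore-binding lipocalin, went the other way: 2.94, 4.14 and 5.49 CPM with IL-1b and 1.45, 0.886 and 0.943 CPM with IL-22, a log2 fold change of -1.93 ± 0.42 (SE, adjusted p = 0.00431). Its level was 0.126 ± 0.219 CPM unstimulated and 41.1 ± 8.5 CPM with both cytokines, far above either alone. The oxidase Nox1, the ribonuclease Ang4 and the guanylate-binding protein Gbp6 were the other 3 lower with IL-22, and Gbp6 moved from -2.40 to -3.40 without IL-22 replicate 2. The call of Ang4 (-0.43 ± 0.11) was lost without IL-1b replicate 3 (-0.37, adjusted p = 0.0586). Acute-phase and complement genes had 8 of 14 higher with IL-22 and 0 lower (57.1%), with a median of 0.36. The endotoxin-binding protein Lbp was at 32.8, 34.8 and 32.1 CPM with IL-22 and 5.15, 9.97 and 6.65 CPM with IL-1b (2.20 ± 0.17, adjusted p = 1.47e-06), and the serum amyloid Saa2 at 23.7, 19.9 and 21.1 CPM with IL-22 and 6.62, 8.09 and 7.48 CPM with IL-1b (1.54 ± 0.16). Saa2 is closely similar to Saa1, and reads could be split between them. Steap4 (0.46 ± 0.09) and Cd55 (0.44 ± 0.12) differed less. Cd55 lost its call without IL-1b replicate 3 (0.42, adjusted p = 0.052) and without IL-22 replicate 2 (0.37, adjusted p = 0.0588).

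Chemokines and cytokines leaned to IL-1b, with 7 of 24 lower with IL-22 (29.2%), 1 higher (4.2%) and a median log2 fold change of -0.29, or -0.15 with the count density trend removed. Besides Ccl20 the 7 hold the ligands of CXCR3, which attract T cells: Cxcl10 was at 15.1, 17.7 and 15.1 CPM with IL-1b and 3.72, 6.65 and 3.96 CPM with IL-22, a log2 fold change of -1.75 ± 0.30 (SE, adjusted p = 0.00087), Cxcl11 at -2.12 ± 0.43 and Cxcl9 at -2.34 ± 0.46. Cxcl10 was at 12.7 ± 6 CPM unstimulated and 3.4 ± 0.153 CPM with both cytokines, so that its low level went with the presence of IL-22. The 1 chemokine higher with IL-22 was the neutrophil attractant Cxcl5, at 45, 31.7 and 44.7 CPM with IL-22 and 22.6, 6.02 and 15.1 CPM with IL-1b (1.47 ± 0.34, adjusted p = 0.00649). Interferon-stimulated genes had 8 of 34 lower with IL-22 and 1 higher (23.5% and 2.9%), with a median of -0.37, or -0.20 without IL-1b replicate 1. The GTPases Gbp6 (-2.40 ± 0.50, or -3.40 without IL-22 replicate 2) and Igtp (-1.49 ± 0.27) and the apoptosis factor Xaf1 (-1.36 ± 0.31) were the largest. Ifit3 (-0.89 ± 0.26), whose groups overlapped, was not called in 5 alternatives, among them the fit without IL-1b replicate 1 (-0.69, adjusted p = 0.0925). The count of this list rose to 13 without IL-1b replicate 3 and to 14 with no filter on low counts. The 1 gene higher with IL-22 was the nucleic acid sensor Zbp1, at 16.3, 13.7 and 14.7 CPM with IL-22 and 12.3, 4.89 and 5.49 CPM with IL-1b, which lost its call when any library other than IL-1b replicate 1 was left out (0.75 to 1.04). Leukocyte marker sums were 17.1 to 101 CPM in the IL-1b libraries and 3.96 to 15.1 CPM in the IL-22 libraries, and their part in these lists was not tested beyond the repeat without IL-1b replicate 1, in which 7 chemokines and 6 interferon-stimulated genes were lower with IL-22.

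In antigen presentation, 3 of 22 genes were higher and 3 lower (13.6% each), or 1 and 2 without IL-1b replicate 1. These shares are near the 13.7% and 12.5% called over all genes, so the list as a whole did not stand out. The peptide transporter Tap1 was at 29.4, 26.7 and 27.3 CPM with IL-1b and 11.6, 16.4 and 19.2 CPM with IL-22 (-0.82 ± 0.17) and its neighbour Psmb9, an immunoproteasome subunit that shares exon bases with it, at -0.78 ± 0.14. The calls of H2-Ab1 (1.19 ± 0.40), H2-Q1 (0.38 ± 0.11) and H2-T22 (-0.29 ± 0.09) were each lost in 5 or more alternatives: the value nearest 0 among the lost calls was 0.78 for H2-Ab1, 0.26 for H2-Q1 and -0.23 for H2-T22.

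Genes of the endoplasmic reticulum and protein synthesis mostly went with IL-22, by small differences whose size depended in part on the scaling. Of 32 tested genes of the unfolded protein response, 24 were higher with IL-22 and 1, the goblet cell stress sensor Ern2, was lower (3.1%), with a median log2 fold change of 0.30. Xbp1, the factor that drives folding capacity, was at 203, 225 and 196 CPM with IL-22 and 136, 134 and 132 CPM with IL-1b (0.64 ± 0.05, adjusted p = 3.13e-06). The glutathione-degrading Chac1 was at 67.3, 74.9 and 78.3 CPM with IL-22 and 31.2, 32.7 and 36.4 CPM with IL-1b (1.13 ± 0.10), the phosphatase subunit Ppp1r15a at 1.08 ± 0.14, Atf3 at 0.66 ± 0.11 and asparagine synthetase, Asns, at 0.56 ± 0.06. The groups overlapped in none of these genes. As 1844 of the 1920 calls in that direction also lacked overlap, this does not set them apart. Of 20 aminoacyl-tRNA synthetases 12 were higher and 0 lower, with a median of 0.27. It was 11 and 0 with a median of 0.18 when the count density trend was removed, and 10 and 0 with a median of 0.19 when total counts were the only scaling. Cars was at 132, 138 and 139.7 CPM with IL-22 and 95.4, 96.5 and 102 CPM with IL-1b (0.48 ± 0.06), and Mars (0.48 ± 0.06), Wars (0.37 ± 0.05) and Aars (0.33 ± 0.05) followed. Vars (0.38 ± 0.11) lost its call in 5 alternatives, such as without IL-1b replicate 1 (0.30, adjusted p = 0.0982). Stress genes known to respond to tissue dissociation and heat had 10 of 20 higher with IL-22 and 0 lower (50.0%, median 0.30), led by the immediate early genes Egr1, at 140.2, 145 and 114 CPM with IL-22 and 64.9, 75.6 and 83.8 CPM with IL-1b (0.83 ± 0.12), Dusp1 (0.67 ± 0.09), Zfp36 (0.64 ± 0.08) and Jun (0.55 ± 0.11). Whether handling differed between the groups was not tested.

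The epithelial surface also differed. Fut2, the fucosyltransferase that fucosylates the epithelial surface, was at 353, 365 and 341 CPM with IL-22 and 166, 179 and 174 CPM with IL-1b, a log2 fold change of 1.03 ± 0.05 (SE, adjusted p = 3.11e-08). The IL-1b libraries lay at the unstimulated 177 ± 11.4 CPM and the IL-22 libraries at the 364 ± 3.75 CPM of both cytokines. Of 29 tested genes of fucosylation and mucin glycosylation, 14 were higher with IL-22 and 3 lower (48.3% and 10.3%), with a median of 0.18. It was 10 and 3 with a median of 0.07 when the count density trend was removed, and 11 and 3 with a median of 0.10 when total counts were the only scaling. The N-acetylglucosaminyltransferases B3gnt5 (0.92 ± 0.13) and B3gnt7 (0.67 ± 0.12) were higher, and the fucosyltransferase Fut4 (-0.65 ± 0.16) and the sialyltransferase St6gal1 (-0.70 ± 0.17) were lower. Of 23 genes of tight junctions and surface mucins, 14 were higher and 1 lower (60.9% and 4.3%), with a median of 0.25, or 8 and 1 both with the count density trend removed (median 0.12) and in the fit of the 5 libraries without IL-1b replicate 1. The membrane mucin Muc1 was at 20.0, 28.1 and 20.2 CPM with IL-22 and 5.15, 5.08 and 7.82 CPM with IL-1b (1.90 ± 0.22, adjusted p = 3.65e-05), the pore-forming claudin Cldn2 at 97, 76.2 and 54.1 CPM with IL-22 and 26.5, 36.5 and 32.6 CPM with IL-1b (1.25 ± 0.20) and Muc13 at 0.36 ± 0.06. Cldn15 was the 1 lower (-0.45 ± 0.12, or -0.39 with adjusted p = 0.0773 without IL-22 replicate 2). Cldn8 (0.38 ± 0.10) lost its call without IL-1b replicate 3 (0.37) and without IL-22 replicate 3 (0.29).

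Goblet cell genes went in both directions: 4 of 29 were higher with IL-22 and 9 lower (13.8% and 31.0%), with a median of -0.17 that lay between -0.09 and -0.26 when 1 library was left out. Nxpe2 and Best2 led those lower. Atoh1, the factor that sets secretory fate, was at 30.3, 33.7 and 35.4 CPM with IL-1b and 20.9, 19.3 and 17 CPM with IL-22 (-0.80 ± 0.14, adjusted p = 0.00112), and Bcas1 at 111, 116 and 112 CPM with IL-1b and 76.6, 76.9 and 71.9 CPM with IL-22 (-0.58 ± 0.08). Muc2, the main gel-forming mucin, was at 448, 435 and 371 CPM with IL-22 and 366, 406 and 336 CPM with IL-1b, with an unadjusted 95% interval of 0.01 to 0.35 and an adjusted p of 0.106, and was called higher with IL-22 in 3 alternatives (0.18 to 0.25). Without IL-22 replicate 3, 7 goblet genes were higher and 8 lower. Genes of absorptive colonocytes were split as well, 10 higher and 7 lower of 43 (23.3% and 16.3%), with a median of 0.10. The balance turned with the processing, to 6 higher and 11 lower with a median of -0.04 when the count density trend was removed, and to 7 and 12 with a median of 0.03 when total counts were the only scaling. Leaving out 1 library moved the median to as little as 0.04 (IL-22 replicate 2) and 0.06 (IL-1b replicate 3). Beside Pck1 and Scnn1g, the aminopeptidase Anpep was higher (16.5, 9.75 and 6.79 CPM with IL-22 and 3.86, 4.7 and 4.99 CPM with IL-1b, 1.27 ± 0.29), and the steroid-inactivating Hsd11b2 (-0.71 ± 0.17) and the alkaline phosphatase Alpi (-0.75 ± 0.21) were lower. Alpi lost its call when IL-1b replicate 1 was left out (-0.63, adjusted p = 0.0642), and when IL-22 replicate 1 (-0.62) or 2 (-0.67) was.

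Metabolism leaned to IL-1b. Of 53 tested genes of lipid, gluconeogenic and xenobiotic metabolism, 15 were lower with IL-22 and 3 higher (28.3% and 5.7%), with a median of -0.10, or 1 higher and 12 lower without IL-1b replicate 1. The lower genes numbered 21 with total counts as the only scaling (2 higher, median -0.18) and 19 with the count density trend removed (2 higher, median -0.23), and the median was -0.06 without IL-22 replicate 3. The P450 Cyp2c68 was at 149, 142 and 150.0 CPM with IL-1b and 39.8, 50.7 and 57.3 CPM with IL-22, a log2 fold change of -1.57 ± 0.13 (SE, adjusted p = 1.66e-06), and the fatty acid sensor Ppara at 35.7, 42.1 and 35.8 CPM with IL-1b and 13.4, 11.7 and 19.6 CPM with IL-22 (-1.33 ± 0.26). In both, all 3 IL-1b libraries were more than 1.5 times above all 3 IL-22 libraries. Ugt2b36 (-1.39 ± 0.37) and the P450 Cyp1a1 (-1.33 ± 0.43) were less stable: Ugt2b36 lost its call without IL-1b replicate 1 (-1.22, adjusted p = 0.0567) and without either of 2 other libraries, and Cyp1a1 in 6 alternatives (-0.89 to -1.34). Among channels and carriers, 10 of 43 were higher and 8 lower (23.3% and 18.6%), or 9 and 5 without IL-1b replicate 1. Clca4b, a calcium-activated chloride channel regulator, was at 453, 475 and 405 CPM with IL-22 and 143, 149.6 and 148 CPM with IL-1b, a log2 fold change of 1.60 ± 0.11 (SE, adjusted p = 5.78e-07), with 85.7 ± 19.3 CPM unstimulated. Slc6a20a (-1.36 ± 0.41) lost its call in 5 alternatives (-1.13 to -1.43). Cd177, a membrane glycoprotein best known from neutrophils and on no list here, was at 123, 195 and 175 CPM with IL-1b and 69.2, 81.3 and 54.1 CPM with IL-22 (-1.28 ± 0.16, adjusted p = 6.66e-05), and its unstimulated level of 70.4 ± 7.11 CPM lay with IL-22.

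Repair genes went with IL-22, with 16 of 30 higher and 2 lower (53.3% and 6.7%) and a median of 0.30. The EGF receptor ligands Hbegf, at 112, 119 and 98.4 CPM with IL-22 and 54.4, 57.4 and 63.2 CPM with IL-1b (0.91 ± 0.08, adjusted p = 4.54e-06), and Ereg (0.98 ± 0.25) were among them, and the plasminogen activator Plat (0.87 ± 0.26), whose call was lost without any 1 of 4 libraries (0.73 to 0.87). The metalloproteinase inhibitor Timp3 was lower, at 14, 5.27 and 10.3 CPM with IL-1b and 1.24, 2.44 and 4.15 CPM with IL-22 (-1.89 ± 0.43). With the count density trend removed, the repair list had 11 higher and 2 lower, with a median of 0.21. In cell death, 12 of 34 were higher and 5 lower (35.3% and 14.7%), with a median of 0.15. That balance depended on the processing. It was 9 and 7 (median 0.07) with total counts as the only scaling, and 10 and 7 (median 0.07) with the count density trend removed. The necroptosis kinase Ripk3 was at 187, 202 and 166 CPM with IL-22 and 93, 94.2 and 94.5 CPM with IL-1b (0.97 ± 0.07, adjusted p = 8.19e-07), its effector Mlkl at 0.62 ± 0.07 and Bcl2l15 at 2.16 ± 0.36, and the inflammasome sensor Nlrp1b was lower at -0.70 ± 0.13.

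Among stem cell and proliferation genes the number called depended on single libraries. Of 20 stem cell and Wnt genes, 5 were higher and 4 lower, or 3 and 3 without IL-1b replicate 1. The Eph receptor Ephb3 was at 71.6, 107 and 67.1 CPM with IL-22 and 33.4, 33.7 and 33.8 CPM with IL-1b (1.28 ± 0.19, adjusted p = 0.000292) and the telomerase subunit Tert at 5.88, 5.64 and 5.65 CPM with IL-1b and 1.45, 1.99 and 3.58 CPM with IL-22 (-1.26 ± 0.28). Lgr5, the marker of crypt base stem cells, was at 4.54, 3.32 and 1.32 CPM with IL-22 and 0.919, 1.5 and 1.66 CPM with IL-1b, with overlapping groups and a 95% interval of -0.33 to 2.59. Ascl2 (-1.32 ± 0.45), Axin2 (0.55 ± 0.19) and Sox9 (-0.57 ± 0.16) were called but lost the call in 10, 9 and 3 alternatives (-1.08 to -1.53, 0.46 to 0.58 and -0.43 to -0.57). Of 36 cell cycle genes, 8 were higher and 1, Ccne2, lower (22.2% and 2.8%), with a median of 0.32. That count rested on single libraries: it was 1 and 1 without IL-1b replicate 1, 2 and 0 without IL-1b replicate 3, 3 and 2 without IL-22 replicate 1, and 24 and 0 without IL-22 replicate 3. The median was above 0 in all 14 alternatives, from 0.11 without IL-22 replicate 1 to 0.49 without IL-22 replicate 3. The count was also 3 and 1 with total counts as the only scaling and 16 and 1 with no filter. Mki67 was at 298, 212 and 184 CPM with IL-22 and 131, 182 and 155 CPM with IL-1b (0.57 ± 0.15), with IL-22 replicate 1 highest, and was not called without IL-1b replicate 1 (0.45, adjusted p = 0.0557).

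**Figure D3:**
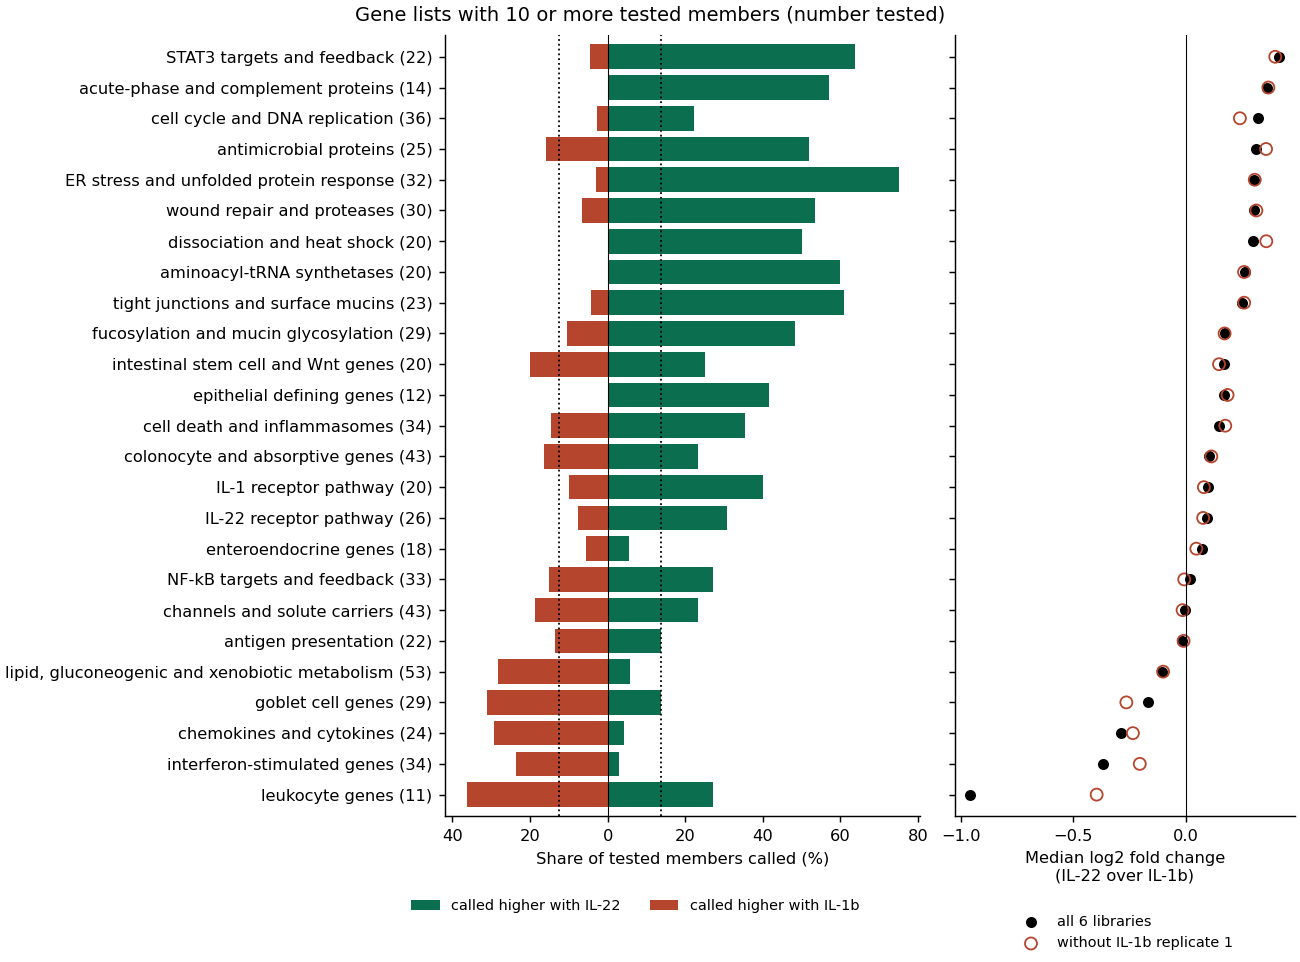
Left, share of the tested members of each gene list called higher with IL-22 (green, to the right) or higher with IL-1b (red, to the left), with dotted lines at the 13.7% and 12.5% called over all genes. Right, median log2 fold change of each list with all 6 libraries (black) and without IL-1b replicate 1 (open red): the leukocyte list moves from -0.96 to -0.40 and most others stay within 0.1.

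Genes that mark cells other than colonocytes and goblet cells were few among those tested. Of 18 enteroendocrine genes, 1 was higher (Cpe, 0.49 ± 0.12) and 1 lower (Tph1, -0.42 ± 0.14, lost in 7 alternatives, at -0.33 to -0.46). The 2 tuft cell genes called lower, Il17rb (-0.99 ± 0.31) and Hpgds (-0.78 ± 0.23), each lost the call in 6 alternatives (-0.80 to -0.97 and -0.58 to -0.80). Of 6 Paneth cell genes, 2 were lower and 0 higher. Beside Ang4 this was the lipase-related Pnliprp2 (-0.87 ± 0.29, adjusted p = 0.0372), whose call was lost in 8 alternatives (-0.53 to -0.94), among them without IL-1b replicate 1 (-0.87, adjusted p = 0.0826). Without IL-1b replicate 3 neither was called and the median of the list moved from -0.25 to 0.01. Of 3 neural genes 0 were called. Of 12 genes that define epithelium, 5 were higher and 0 lower (41.7%), with a median of 0.17, or 1 and 0 with a median of 0.01 when the count density trend was removed. Of the leukocyte list, 11 of 41 genes in the table passed the filter on low counts, and 3 were higher and 4 lower. Those higher were S100a8, Ly6g and the lysosomal protein Cd68, at 10.5, 15.5 and 8.49 CPM with IL-22 and 3.49, 3.95 and 3.82 CPM with IL-1b (1.60 ± 0.26, adjusted p = 0.000584), and those lower Ptprc, Laptm5, Plek and Cytip, of which only Plek stayed called without IL-1b replicate 1. Pecam1, an endothelial adhesion molecule, was lower with IL-22, at 7.35, 4.89 and 8.15 CPM with IL-1b and 1.45, 1.11 and 1.13 CPM with IL-22 (-2.45 ± 0.43, adjusted p = 0.00107), and its IL-1b level lay with the unstimulated 6.08 ± 1.18 CPM. The 5 endothelial markers summed to 1.32 to 1.86 CPM with IL-22 and 5.27 to 8.32 CPM with IL-1b. Most of this sum was Pecam1 itself, with 7, 5 and 6 counts with IL-22 and 40, 26 and 49 with IL-1b. Cdh5, Kdr, Flt1 and Tek had 0 to 2 counts in each of the 6 libraries and do not add to that difference. Of 5 tested endothelial genes 2 were lower and 0 higher. The other was Vwf, the von Willebrand factor, at 4.41, 3.57 and 2.66 CPM with IL-1b and 1.45, 1.77 and 1.89 CPM with IL-22 (-1.04 ± 0.32), whose call was lost in 7 alternatives (-0.74 to -1.06), among them without IL-1b replicate 1 (-0.86, adjusted p = 0.107). Of 3 tested fibroblast and smooth muscle genes 1 was lower and 0 higher, also without IL-1b replicate 1. That 1 was Pdgfrb, a receptor of mesenchymal cells, at 34.2, 39.9 and 43.1 CPM with IL-1b and 16.9, 19.9 and 27.3 CPM with IL-22 (-0.86 ± 0.17), highest in IL-1b replicate 3. The 7 fibroblast and smooth muscle markers summed to 4.04 CPM in IL-1b replicate 1, 1.51 and 2.00 CPM in the other IL-1b libraries and 0.566 to 1.86 CPM with IL-22. Smooth muscle actin, Acta2, had 11 counts in IL-1b replicate 1 and 0 to 2 in the other 5 libraries, and the collagen Col1a1 had 6 against 0 or 1. Col1a2 and Dcn were at 0 in all 6 libraries.

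The libraries that the comparison did not contain, those with both cytokines and the unstimulated ones, were compared for the same genes. Between these groups 1920 genes were higher with both cytokines (13.7% of those tested, the same number as in the direct comparison) and 1863 lower (13.3%). This contrast holds the effects of both cytokines together, so it is not a repeat of IL-22 against IL-1b. Of the 1920 genes higher with IL-22 than with IL-1b, 1145 were also higher with both cytokines than unstimulated (59.6%) and 6 were lower. Of the 1753 lower with IL-22, 925 were lower with both than unstimulated (52.8%) and 18 higher (1.0%). Among the genes at least 2-fold apart the shares in the same direction were 80.4% of 240 and 62.8% of 360. The unstimulated mean lay nearer to IL-1b than to IL-22 for 90.6% of the genes higher with IL-22 and 82.9% of those lower, against 66.9% of all genes tested. The mean with both cytokines lay nearer to IL-22 for 89.0% and 87.8%, against 70.2%. For all 20 leading genes of the IL-22 side the unstimulated mean was nearer to IL-1b, and on the other side for 14 of 20, the exceptions being Ccl20, Csf1, Ptprc, Laptm5, Lgals1 and Ldhb.

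The 18 genes higher with IL-1b than with IL-22, yet higher with both cytokines than unstimulated, include Tnfaip2 (log2 fold change of both over unstimulated 1.57), Zc3h12a (0.74), Cd177 (0.68), Ccl20 (0.59) and Ang4 (0.39). Lcn2 is another, with 602 counts over the libraries with both cytokines and 2 over the unstimulated ones, a ratio of 335 (95% counting interval 92.3 to 2773). Among them the bacterial peptidoglycan sensor Nod2 was named after its values were seen, at -1.36 for IL-22 over IL-1b and 1.24 for both over unstimulated. Axin2 and Anpep were among the 6 of the opposite kind, at -0.85 and -0.90 for both over unstimulated.

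**Figure D4:**
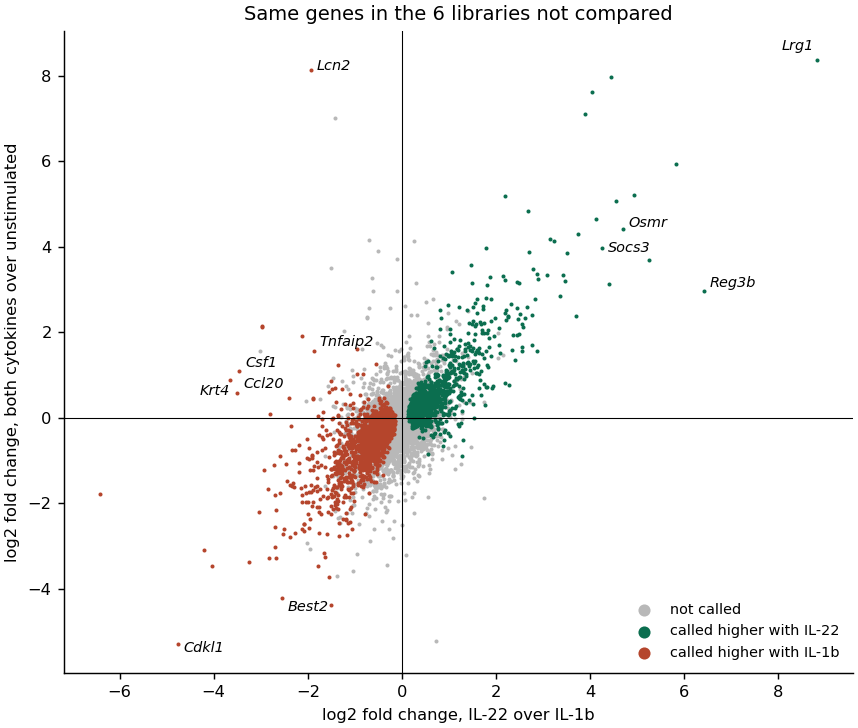
Log2 fold change of both cytokines over unstimulated (vertical axis, 6 libraries) against that of IL-22 over IL-1b (horizontal axis, the other 6 libraries), 1 point per gene tested. Most genes called in the direct comparison (green and red) lie in the lower left and upper right, and Lcn2, Tnfaip2, Ccl20 and Csf1 lie in the upper left. The height of Lcn2, with 2 unstimulated counts, depends on the small constant used in the fit.

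Without IL-1b replicate 1, the library highest in leukocyte markers, 2561 of 14155 genes tested were called (18.1%), 1371 higher with IL-22 and 1190 lower. The other IL-1b libraries still held 24.8 and 17.1 CPM of these markers, against 3.96 to 15.1 CPM with IL-22 and 7.59 to 9.46 CPM unstimulated. Of the genes called with all 6 libraries, 1351 higher and 1155 lower were called again, 569 and 598 were not, and 0 were called in the opposite direction. Leaving out IL-1b replicate 2 gave 1556 and 1450 calls and leaving out IL-1b replicate 3 gave 1277 and 1068, so that calls were also fewer without either other IL-1b library. Of the genes at least 2-fold apart with all 6 libraries, 217 of 240 higher and 282 of 360 lower stayed called, at whatever size. Without that library, 233 genes were at least 2-fold higher and 293 at least 2-fold lower. Of the 40 leading genes 37 stayed called, the exceptions being Ptprc, Laptm5 and Lgals1. In IL-1b replicate 1, 20 genes were at 3 or more times the level of both other IL-1b libraries, against 4 and 4 in those libraries and 10, 12 and 12 in the IL-22 libraries. Of the 20, 4 were called lower with IL-22, Ptprc, Laptm5, Lgals1 and the predicted gene Gm8995, and 2 were on the leukocyte list.

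The genes gained without that library were few, 16 higher with IL-22 and 29 lower, of which 10 were new to the test in all. Kremen2, an inhibitor of Wnt signalling, was at 29.9, 28.6 and 32.4 CPM with IL-22 and 28.3, 19.8 and 20.0 CPM with IL-1b, and moved from 0.42 (adjusted p = 0.0684) to 0.61 (0.0196). Smoc1, a secreted calcium-binding protein, moved from 1.13 (0.0972) to 2.00 (0.0152). The DNA damage mediator Mdc1 moved from -0.27 (0.059) to -0.36 (0.0193) and the transporter Slc18b1 from -0.28 (0.0665) to -0.40 (0.0123). In each, IL-1b replicate 1 lay nearer to the IL-22 libraries than the other IL-1b libraries did. Picking genes that gain a call without that library favours this placement, so it is no separate result.

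**Figure D5:**
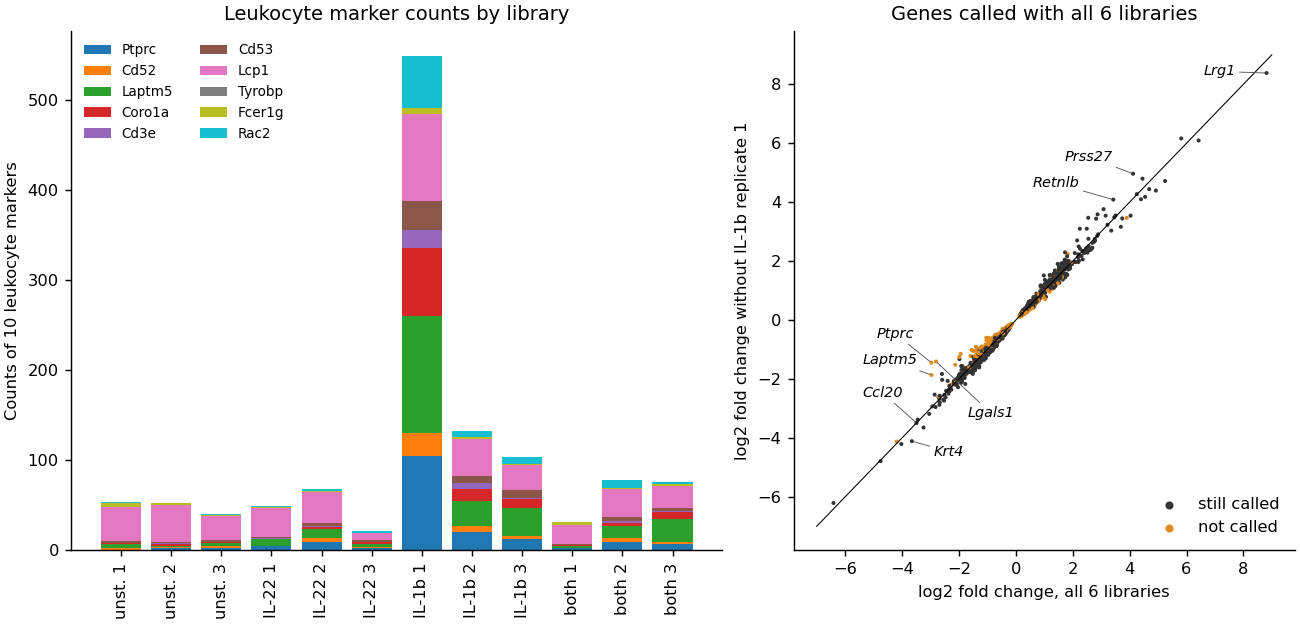
Left, counts of 10 leukocyte markers in each of the 12 libraries, stacked by gene: IL-1b replicate 1 stands above all others. Right, log2 fold change without that library against the value with all 6 libraries for the genes called with all 6, dark where still called and orange where not: most lie on the line of equal values, and Ptprc, Laptm5 and Lgals1 lie above it.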

How the data were processed

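RNA of 12 colonoid samples was made into TruSeq Stranded libraries, per the labels' protocols, and the table the authors deposited gives raw counts, as whole numbers, for each gene symbol. The submitters' processing notes name mm10 as genome build. Aligner, counting tool and strand setting were not given in the sources used here.

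Genes were kept by filterByExpr, scaled by TMM and fitted in edgeR 4.0.16 (R 4.3.3) by quasi-likelihood with 1 mean per group over all 12 libraries (8 residual degrees of freedom). The contrast was IL-22 minus IL-1b, and a call is a Benjamini-Hochberg adjusted p under 0.05. Errors are SEs from the F value, and 95% intervals come from the same fit. Where a group held 3 or fewer counts, the ratio of summed counts is given with an exact interval, and a group at 0 was set to 3 counts. In simulated data the procedure called 69.1% of genes changed 1.5-fold, 87.3% of those changed 2-fold and 98.4% of those changed 4-fold. It called 9 of 13623 unchanged genes. Smaller changes and the count density trend were not simulated. Gene lists are described by counts and medians, with no set test. The members and the 30 lists were chosen with earlier results of these data known.

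Named genes are the 20 of largest change per direction that were called, at 1 CPM or more and without overlap of the groups (clone names passed over), up to 5 called genes per list (or 2 of lowest p), a fixed set of receptors and response genes, and 5 per direction gained without IL-1b replicate 1. Of the table's symbols 26762 matched GENCODE M21 directly and 515 by synonym, and 8592 had no match and so no count density. Of 168 named genes 46 share exon bases with another gene. Alternatives were DESeq2 1.42.0, total-count scaling, other filters, only the libraries compared, a replicate block, removal of the count density trend, and each library left out. The labels give all groups the numbers 1 to 3. Same-numbered IL-22 and IL-1b libraries deviated together weakly (correlations 0.08, 0.02 and 0.02) and were not treated as pairs in the main fit. Counting noise lowers such correlations, so they cannot exclude pairing. Replicates differed by more than counting noise, with a chi-square per degree of freedom of 3.03 for IL-22 and 2.05 for IL-1b over 9218 genes. The depth of 4728048 to 5804033 counts per library limits genes of a few CPM.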

Additional observations from a re-analysis of the deposited data

How the results depend on the processing

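Over 14 alternatives, leaving out 1 library gave 1277 to 1913 genes higher with IL-22 and 1068 to 1734 lower, 211 to 261 at least 2-fold higher and 273 to 392 at least 2-fold lower, and 1340 to 1900 higher and 1308 to 1774 lower with both cytokines than unstimulated. The fit of only the 5 libraries without IL-1b replicate 1 gave 1165 higher and 992 lower, and no filter on low counts gave 555 at least 2-fold lower. DESeq2 gave 1759 and 1252. The replicate block gave 1772 higher and 1547 lower (233 and 337 at least 2-fold), and for both cytokines against unstimulated, 1742 genes higher with both cytokines than unstimulated and 1714 genes lower with both cytokines than unstimulated. Whether the replicate numbers pair the libraries is not known, and 4 of the 6 correlated best with their own number. Of the single gene values 2116 kept direction and call, 188 lost the call, 22 gained it and 14 changed sign. The sign changes were all in genes that were not called: Snap25 with the count density trend removed (0.1185), Il1r1 likewise (0.0515) and Il1rn likewise (-0.0074), Tnfaip3 with total counts alone (-0.0598) and with the trend removed (-0.0098), and Cxcl2 with the trend removed (0.0947). With 1 library left out, the log2 fold change ranged from -0.6997 to 0.1271 for Il1r1, from -0.0171 to 0.0461 for Tnfaip3, from -0.3436 to 0.0837 for Nos2, from -0.1048 to 0.3838 for Cxcl1 and from -0.4368 to 0.8953 for Cxcl2. The cause was not tested. Of the leading 40 genes, 31 were called in all 14 alternatives. Myl1, S100a8, Scn3b, Hrnr, Prelp and Lgals1 did not pass the filter on low counts when only the 6 libraries compared were fitted. Krt4, Ptprc, Laptm5 and Lgals1 lost the call in at least 1 alternative. Depth limits the genes with few counts: Lrg1, Trim10, Myl1, S100a8, Hrnr, Cdkl1 and Prelp have only a ratio with a wide counting interval or a bound.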
